A study of Mus musculus with 4 samples.

Results

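The genes described here encode the constitutive proteasome, the protease complex that degrades most ubiquitin-tagged proteins of the cell, and its regulators. They were chosen by symbol, as every Psma, Psmb, Psmc, Psmd, Psme or Psmf gene followed by a number, leaving out the interferon-inducible subunit genes Psmb8, Psmb9 and Psmb10. This gave 41 of the 19171 genes in the deposited expression table, and no measured value entered the choice. RNA was sequenced from primary calvarial cells, the cells that grow out of collagenase-treated skull bone chips, infected with an adenovirus that carried Cre (2 libraries) or YFP (2 libraries). All cells were of the genotype mir17fl/fl:106b-/-, from C57BL/6 mice 10 days after birth, so both groups lacked the miR-106b cluster and carried floxed alleles of the miR-17 cluster, which Cre recombinase deletes. RNA was taken 3 days after infection at a virus dose meant to reach more than 80% of cells, and the infected share of each library was not measured here. The groups differ in the protein the virus carries as well as in the deletion, and nothing in the labels says that replicate libraries are from separate animals or cultures. The p-values therefore reflect how far these 4 libraries vary, and that variation may be technical.

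The proteasome has a barrel-shaped core of stacked alpha and beta rings, with the proteolytic sites facing the inside of the beta rings. A regulatory particle caps the barrel: its base holds the ATPases that unfold substrates (Psmc genes) and its lid removes ubiquitin (most Psmd genes). Other caps, encoded by the Psme genes, open the barrel without using ATP or ubiquitin. In bone-forming cells the complex is known for the turnover of Runx2, of beta-catenin and of cyclins.

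Values are FPKM, fragments per kilobase of transcript and of sequencing depth, and summed to 461677 and 471021 in the Cre libraries and to 458756 and 462419 in the YFP libraries. Read counts were not analysed here, which leaves the depth of each library unknown and allows no interval for counting error. Of the osteoblast markers, Spp1, the osteopontin gene, was the highest and the only one called (3855 and 3919 FPKM with Cre, against 3126 and 3242 FPKM with YFP, log2 change 0.29, limma adjusted p = 0.00148). Col1a1 was at 1684 to 1778 FPKM and the osteoblast regulator Runx2 at 10.3 to 12.1 FPKM over the 4 libraries. Sp7 and Alpl were at 1.53 to 2.49 FPKM and the late marker Ibsp at no more than 0.63 FPKM. Bglap, the osteocalcin gene, was listed at 1.27 and 0.91 FPKM with Cre and at 0 in both YFP libraries.

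From the deleted cluster, 6 mature miRNAs of 4 seed families are shown to let the proteasome genes be searched for their target sites. Any other mature product of the cluster was not searched for. RefSeq sequences (GRCm38.p6, chromosome 14, plus strand) are printed from 5′ to 3′, with the seed, bases 2 to 8, in capitals.
miR-17-5p: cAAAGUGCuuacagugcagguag
miR-20a-5p: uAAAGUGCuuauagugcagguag
miR-18a-5p: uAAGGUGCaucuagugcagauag
miR-19a-3p: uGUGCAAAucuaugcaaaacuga
miR-19b-3p: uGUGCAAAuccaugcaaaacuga
miR-92a-3p: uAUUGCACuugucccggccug

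Few proteasome genes carry a site for these seeds. In the longest annotated 3′ UTR (GENCODE M21), 4 of the 39 tested proteasome genes (10.3%) held a 7-base match to any of the seeds, against 3910 of 11532 tested genes (33.9%). The UTRs of the proteasome genes were also shorter, with a median of 296 bases against 1189 bases over the tested genes, and the share was not corrected for length. The miR-17 site was found in Psmf1, the miR-18 site in Psmd11 and Psmd13, the miR-19 site in Psma2, and the miR-92 site in none of the 39. The matches follow with their flanking bases and the site in capitals.
Psmf1, miR-17 family: agtaaataaataGCACTTTataacctgtt
Psmd11, miR-18 family: aggtaagcgcctGCACCTTtgctgtgccc
Psmd13, miR-18 family: gcagaccctgccGCACCTTgcaaggcaat
Psma2, miR-19 family: ccaggtctcacaTTTGCACtacaggtgct
None of these 4 genes passed the test between groups. Their log2 changes were 0.058, 0.041, 0.021 and 0.049 in the order of the lines above. A match of letters is a description and not a measured binding site.

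Most of the constitutive proteasome differed little between Cre and YFP cells. Of the 39 tested genes, 6 rose with Cre and 0 fell, at an adjusted p below 0.05 in limma (two-sided, Benjamini-Hochberg over the 12046 tested genes). Those were the activator genes Psme1 and Psme2, the Psmd genes Psmd5 and Psmd12, and the core genes Psma6 and Psmb7, with rises of 1.10-fold to 1.21-fold as ratios of mean FPKM. The 6 are 15.4% of the members, while 32.9% of all tested genes were called, 16.6% as higher and 16.3% as lower. At an unadjusted p below 0.05, 5 more genes passed, Psma1 as lower and Psma3, Psmc1, Psmd1 and Psmd7 as higher. At least 32.9% of all tested genes pass that looser threshold, and their exact share was not counted. Leaving out Cre replicate 1 left 3 called genes, and leaving out Cre replicate 2 left 2. Rescaling all libraries to the same total gave 5 genes as higher and 1, Psma1, as lower. Over all 12046 tested genes that rescaling gave 1867 as higher and 2251 as lower.

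The median log2 change of the 39 genes was 0.058, against -0.013 over all tested genes, and without YFP replicate 2 it was 0.031, against -0.015. Changes are differences of log2(FPKM + 1), Cre minus YFP, which understate the change of low genes. The quartiles were 0.020 and 0.105 for the proteasome genes and -0.12 and 0.11 for all tested genes. In 19 of the 39 genes both Cre libraries were above both YFP libraries (48.7%, against 31.5% of all tested genes), and in 2 both were below (5.13%, against 35.4%). Gene by gene, the median absolute log2 difference was 0.069 between the group means, 0.056 between the 2 Cre libraries and 0.059 between the 2 YFP libraries over these 39 genes. For all tested genes the same medians were 0.12, 0.057 and 0.065. For the 33 genes that were not called, the 95% intervals of the log2 change reached no lower than -0.23 (Psma1) and no higher than 0.25 (Psmc5).

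**Figure D1:**
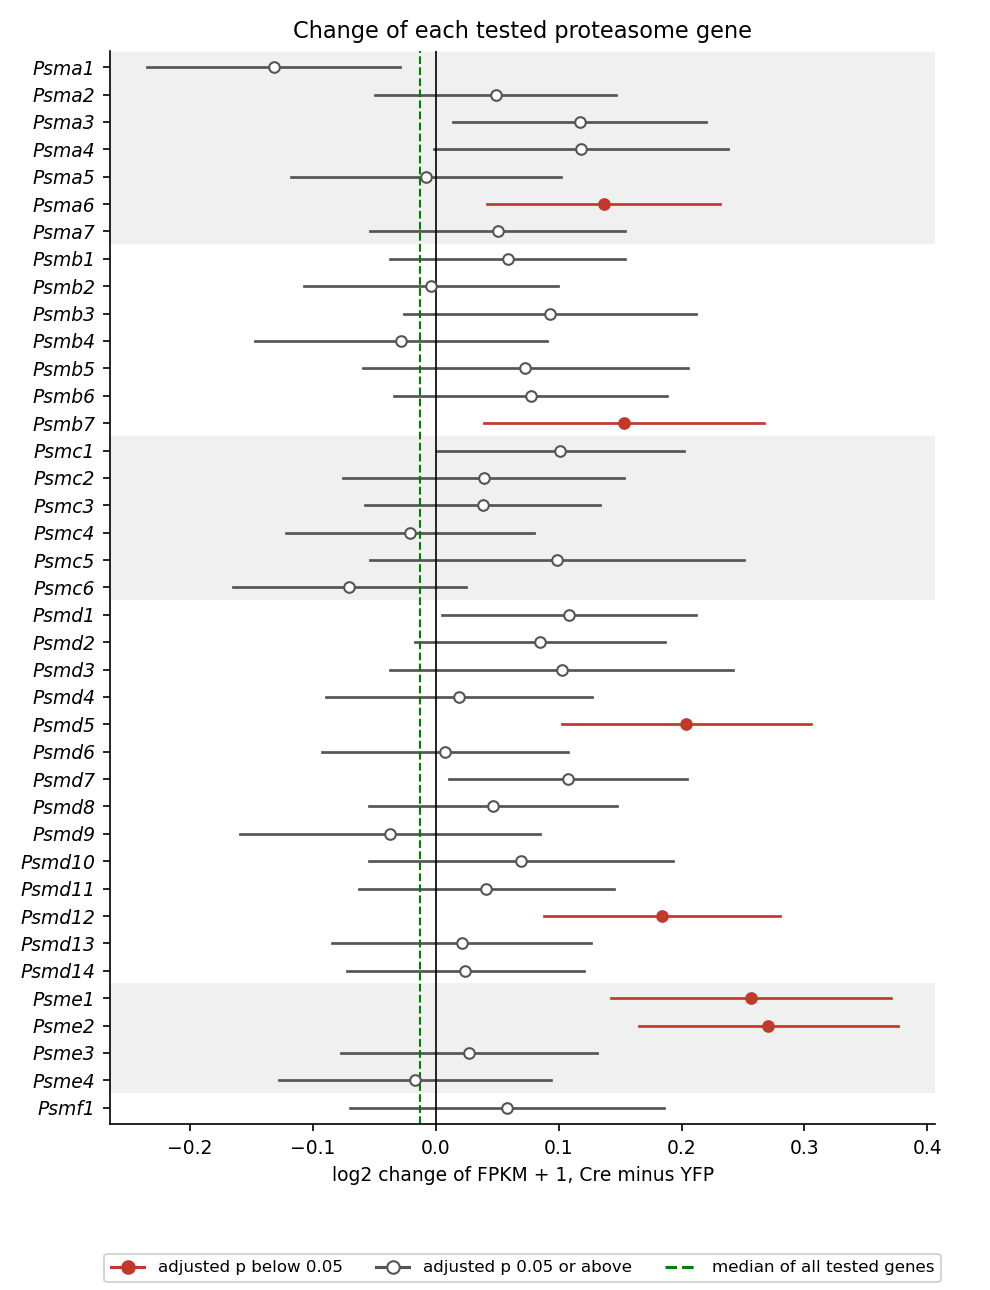
Log2 change of FPKM + 1 (Cre minus YFP, x axis) of the 39 tested proteasome genes, with limma's 95% interval as a bar; grey and white bands mark, from the top, the alpha genes, beta genes, base, Psmd genes, activators and Psmf1. Filled red points are the 6 called genes, and the dashed line is the median of all tested genes at -0.013.

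Summed over all 41 genes, proteasome RNA was 3768 and 3872 FPKM in the Cre libraries, against 3683 and 3623 FPKM in the YFP libraries. Both Cre sums were above both YFP sums, and as a share of all FPKM they were 0.816% and 0.822%, against 0.803% and 0.783%. The sum of the core genes was 1.05 times as high in the Cre mean as in the YFP mean, that of the base genes 1.02 times, that of the Psmd genes 1.05 times and that of the Psme genes 1.11 times. Cre replicate 2 was 1.05 times as high as Cre replicate 1 in the sum of the beta genes, so that difference between replicates was as large as the difference between groups, 1.04 times. The base sums overlapped between groups, at 610 and 628 FPKM with Cre and at 616 and 597 FPKM with YFP. In these bulk libraries, a change in the share of a cell type and a change in RNA per cell cannot be told apart.

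**Figure D2:**
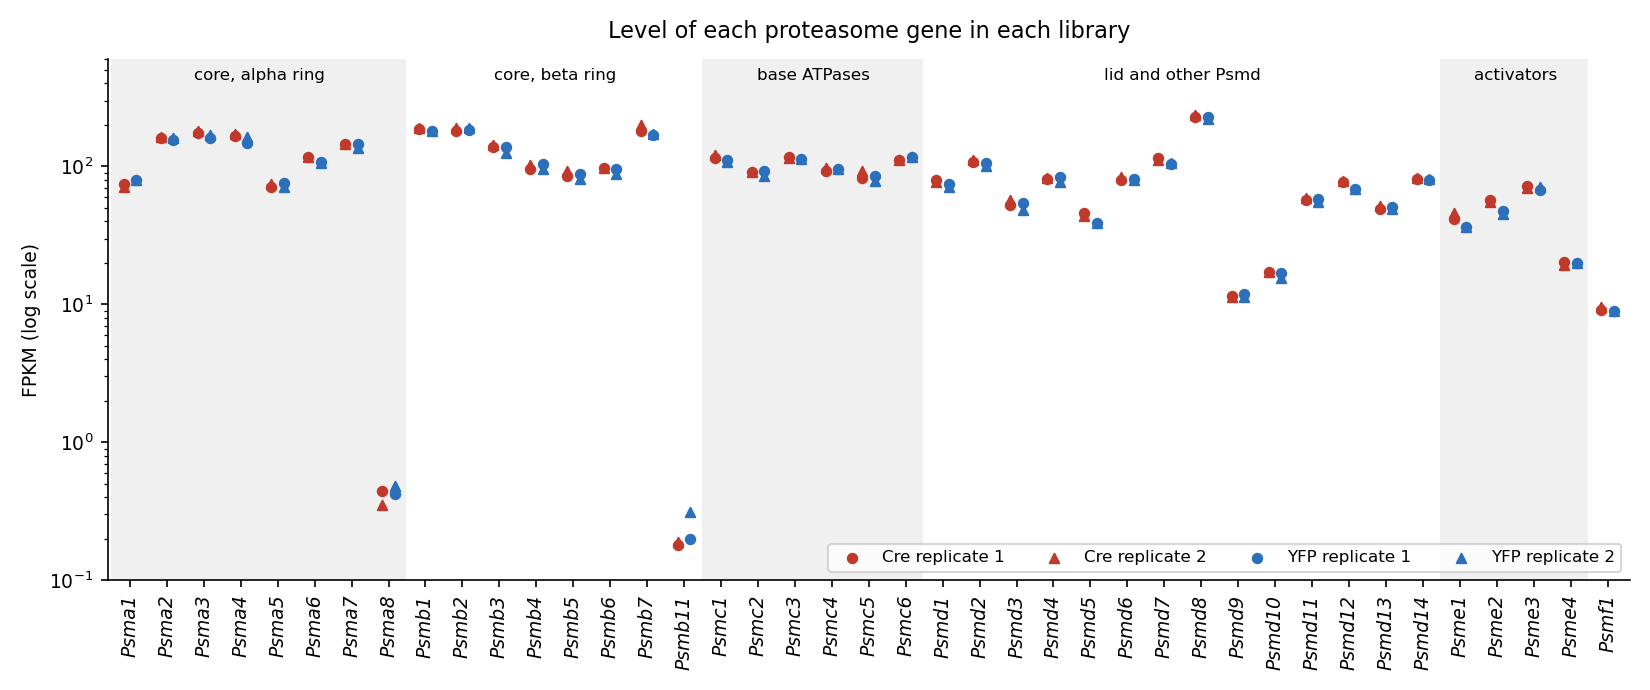
FPKM on a log axis of all 41 proteasome genes in each of the 4 libraries (red, Cre; blue, YFP; circles, replicate 1; triangles, replicate 2). Core and base genes sit between 70.6 and 199 FPKM apart from Psma8 and Psmb11, which reach at most 0.48 FPKM.

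The 7 tested alpha genes encode the outer rings, whose amino termini form the gate of the barrel. Psma6 (Entrez gene 26443) rose with Cre, at 117 and 117 FPKM in the Cre libraries against 107 and 106 FPKM in the YFP libraries (log2 change 0.14, SE 0.043, limma adjusted p = 0.0319). The groups did not overlap and the replicates lay within 1 FPKM of each other, yet the call was lost without any 1 of the 4 libraries (adjusted p of 0.0505 to 0.181), with rescaling to equal totals (0.0530), with no filter on low values (0.0551) and without limma's trend and robust options (0.0821). Psma1 went the other way, at 74.8 and 70.6 FPKM with Cre against 79.6 and 79.8 FPKM with YFP. Its log2 change of -0.13 did not pass (limma adjusted p = 0.0506), and it passed with rescaling to equal totals (0.0258) and under the filter of a mean of 5 FPKM (0.0417).

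Psma3 and Psma4 leaned upward in both Cre libraries. Psma3 had 176 and 181 FPKM with Cre, against 160.1 and 168 FPKM with YFP, and Psma4 had 166 and 173 FPKM with Cre, against 148 and 163 FPKM with YFP. The groups did not overlap in either gene, and neither passed (limma adjusted p = 0.0770 and 0.119), with calls when YFP replicate 2 was left out (0.0382 and 0.0157). Psma3 had the highest mean of the tested alpha genes, 171 FPKM, and Psma5 the lowest, 73.0 FPKM. Psma5 was at 70.8 and 74.8 FPKM with Cre and at 75.4 and 71.1 FPKM with YFP, with overlapping groups (log2 change -0.0080, 95% interval -0.12 to 0.10). Psma2 and Psma7 had log2 changes of 0.049 and 0.050.

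In the inner rings, Psmb6, Psmb7 and Psmb5 encode the catalytic subunits beta1, beta2 and beta5, with caspase-like, trypsin-like and chymotrypsin-like activity. The subunits encoded by Psmb1, Psmb2, Psmb3 and Psmb4 have no active site. Of the 7 tested beta genes only Psmb7 (Entrez gene 19177) was called. It was at 181 and 199 FPKM with Cre, against 170.3 and 171 FPKM with YFP (log2 change 0.15, SE 0.052, limma adjusted p = 0.0420). The YFP libraries were close together and the Cre libraries were not, and without Cre replicate 2 the log2 change was 0.088 (adjusted p = 0.375). The call was also lost without YFP replicate 1 (0.0812), without YFP replicate 2 (0.0711), with no filter (0.10) and without the trend and robust options (0.110).

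The other catalytic genes did not pass. Psmb6 had 96.91 and 97 FPKM with Cre, against 95.8 and 88.1 FPKM with YFP (log2 change 0.077, 95% interval -0.034 to 0.19). Psmb5, the lowest of the tested beta genes, had 84.7 and 93.4 FPKM with Cre, against 88.1 and 81.1 FPKM with YFP (log2 change 0.073, 95% interval -0.060 to 0.21). The Cre libraries were above the YFP libraries for Psmb6, narrowly, and the groups overlapped for Psmb5. Processed pseudogenes of Psma5, Psmb5, Psmb6 and Psmb7 are annotated by RefSeq, and how reads shared with such copies were counted is not given in the sources used here.

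Of the structural beta genes, Psmb1 was at 187 and 189 FPKM with Cre, against 179.6 and 181 FPKM with YFP, without overlap (log2 change 0.058, limma adjusted p = 0.337). Psmb3 was at 137 and 144 FPKM with Cre and at 138 and 126 FPKM with YFP (log2 change 0.093, limma adjusted p = 0.215), and was called when YFP replicate 1 was left out (0.0363). Its Cre libraries straddled YFP replicate 1. Psmb2 had the highest mean of the beta genes, with 182 and 191 FPKM with Cre and 184 and 189.8 FPKM with YFP (log2 change -0.0040, 95% interval -0.11 to 0.099). Psmb4, with a log2 change of -0.028, also overlapped.

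None of the 6 base ATPase genes, which form a ring that unfolds substrates and threads them into the core, passed the test. Psmc1 was nearest to it, at 116 and 120.5 FPKM with Cre, against 112 and 108 FPKM with YFP (log2 change 0.10, SE 0.045, limma adjusted p = 0.113). Psmc6 lay lower with Cre in both libraries, at 112 and 111 FPKM against 117 and 117 FPKM with YFP (log2 change -0.070, SE 0.043, limma adjusted p = 0.239). The replicates of Psmc6 agreed more closely than its groups, and those of Psmc5 did not, with 82.1 and 92.8 FPKM with Cre and 85.3 and 77.8 FPKM with YFP (log2 change 0.099, 95% interval -0.053 to 0.25). Psmc3, the highest of the base genes by mean, had 117 and 116 FPKM with Cre and 113 and 114 FPKM with YFP (log2 change 0.038, limma adjusted p = 0.542). The log2 changes of Psmc2 and Psmc4 were 0.039 and -0.021, and none of the 11 alternative settings made a call in the base. At an unadjusted p below 0.05, Psmc1 alone passed in limma, a threshold that at least 32.9% of all tested genes pass.

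The 14 Psmd genes cover the lid, the large base scaffolds Psmd1 and Psmd2, the ubiquitin receptor Psmd4 and 3 assembly chaperones of the base, Psmd5, Psmd9 and Psmd10. Psmd5 (Entrez gene 66998), a chaperone that holds base ATPases apart from the core during assembly, rose with Cre. It was at 45.8 and 44.0 FPKM with Cre, against 39.2 and 38.6 FPKM with YFP (log2 change 0.20, SE 0.046, limma adjusted p = 0.00635), with a gap between the groups wider than the gap within either. The call was lost without Cre replicate 1 (0.0881). The other base chaperones did not pass. Psmd9, the lowest of the Psmd genes, was at 11.5 and 11.2 FPKM with Cre and at 12.0 and 11.4 FPKM with YFP (log2 change -0.037, 95% interval -0.16 to 0.085). Psmd10, which encodes gankyrin, had a log2 change of 0.069 (95% interval -0.054 to 0.19).

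Psmd12 (Entrez gene 66997), a scaffold subunit of the lid, was the other Psmd gene called. It was at 77.4 and 78.7 FPKM with Cre, against 68.1 and 69.1 FPKM with YFP (log2 change 0.18, SE 0.044, limma adjusted p = 0.00822). Its groups were well apart, and its call was lost without Cre replicate 1 (0.0602) or Cre replicate 2 (0.0988), with log2 changes of 0.20 and 0.17. Psmd14, the deubiquitinase of the lid, and Psmd7, its partner in the catalytic dimer, did not pass. Psmd14 had a log2 change of 0.024 (95% interval -0.073 to 0.12). Psmd7 was at 115 and 112 FPKM with Cre, against 105 and 105 FPKM with YFP (log2 change 0.11, limma adjusted p = 0.0842). Psmd7 did not overlap between groups.

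The scaffold Psmd1 was at 80.2 and 77.0 FPKM with Cre, against 74.4 and 71.3 FPKM with YFP (log2 change 0.11, limma adjusted p = 0.0997). Psmd8, a lid subunit, had the highest mean of all proteasome genes, 228 FPKM, at 227.5 and 237 FPKM with Cre and at 227.1 and 222 FPKM with YFP (log2 change 0.046, 95% interval -0.055 to 0.15). The Cre libraries were above the YFP libraries in both genes, for Psmd8 by less than 1 FPKM. The other Psmd genes, Psmd2, Psmd3, Psmd4, Psmd6, Psmd11 and Psmd13, had log2 changes of 0.0076 to 0.10, of which Psmd3 was called when YFP replicate 1 was left out (0.0348). Over all 14, 13 log2 changes were above 0, as were 31 of those of the 39 proteasome genes, against 5645 of 12046 over all tested genes.

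Among the activators, Psme1 and Psme2 rose together while Psme3 and Psme4 did not pass. Psme1 and Psme2 encode the alternating subunits of PA28, an interferon-inducible cap of the core linked to the production of peptides for class I antigen presentation. Psme2 (Entrez gene 19188) was at 57.3 and 55.3 FPKM with Cre, against 47.7 and 45.3 FPKM with YFP (log2 change 0.27, SE 0.048, limma adjusted p = 0.00152). Psme1 (Entrez gene 19186) was at 41.9 and 45.7 FPKM with Cre, against 36.3 and 36.6 FPKM with YFP (log2 change 0.26, SE 0.052, limma adjusted p = 0.00338). The groups did not overlap in either gene. The call of Psme2 was made under all 11 alternative settings and that of Psme1 under 10 of them, being lost without Cre replicate 2 (log2 change 0.20, adjusted p = 0.0742). The ratio of Psme2 to Psme1 in FPKM was 1.37 and 1.21 with Cre and 1.32 and 1.24 with YFP, with overlapping groups.

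Psme3 encodes PA28 gamma, a cap of the same family found in the nucleus. It was at 71.5 and 70.0 FPKM with Cre and at 67.4 and 71.4 FPKM with YFP (log2 change 0.027, 95% interval -0.077 to 0.13). Psme4, which encodes the large single-chain activator PA200, was at 20.3 and 19.3 FPKM with Cre and at 20 and 20.03 FPKM with YFP (log2 change -0.017, 95% interval -0.13 to 0.094). Both genes overlapped between the groups. The difference between the response of Psme1 and Psme2 and that of Psme3 and Psme4 was not tested as such. Psme2b, a retrocopy of Psme2, is not analysed here, and how reads that match both were assigned is not given in the sources used here, so the level of Psme2 is uncertain to that degree.

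The promoter windows of the pair that moved together, and of the called Psmd genes, follow from RefSeq (GRCm38.p6), from 250 bases before to 50 after the annotated start and in the direction of transcription. Capitals mark matches on either strand to the core of the interferon-stimulated response element (GAAA, any 2 bases, GAAA) or to the core TGACNNNGC of the antioxidant response element, which the proteasome gene activator NRF1 and its relative NRF2 bind. No match of one motif overlaps one of the other.
Psme1, chr14:55578244-55578543, plus strand: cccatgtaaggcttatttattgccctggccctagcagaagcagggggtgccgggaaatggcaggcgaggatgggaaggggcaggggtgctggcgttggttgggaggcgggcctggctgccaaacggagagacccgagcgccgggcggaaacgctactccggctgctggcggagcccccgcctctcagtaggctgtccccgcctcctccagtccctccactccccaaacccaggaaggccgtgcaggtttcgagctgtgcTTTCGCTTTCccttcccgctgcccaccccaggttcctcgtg
Psme2, chr14:55591052-55591351, minus strand: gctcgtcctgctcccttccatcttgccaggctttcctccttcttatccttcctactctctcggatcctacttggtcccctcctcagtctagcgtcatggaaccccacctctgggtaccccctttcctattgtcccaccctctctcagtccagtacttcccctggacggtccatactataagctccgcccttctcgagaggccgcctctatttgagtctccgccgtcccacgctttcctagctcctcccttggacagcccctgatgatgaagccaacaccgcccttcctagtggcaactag
Psmd5, chr2:34870913-34871212, minus strand: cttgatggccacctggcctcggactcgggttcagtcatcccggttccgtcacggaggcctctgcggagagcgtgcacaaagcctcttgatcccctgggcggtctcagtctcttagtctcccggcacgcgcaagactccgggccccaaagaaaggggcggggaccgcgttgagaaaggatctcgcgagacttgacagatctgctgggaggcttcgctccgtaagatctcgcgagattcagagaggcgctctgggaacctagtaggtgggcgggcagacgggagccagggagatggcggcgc
Psmd12, chr11:107479278-107479577, plus strand: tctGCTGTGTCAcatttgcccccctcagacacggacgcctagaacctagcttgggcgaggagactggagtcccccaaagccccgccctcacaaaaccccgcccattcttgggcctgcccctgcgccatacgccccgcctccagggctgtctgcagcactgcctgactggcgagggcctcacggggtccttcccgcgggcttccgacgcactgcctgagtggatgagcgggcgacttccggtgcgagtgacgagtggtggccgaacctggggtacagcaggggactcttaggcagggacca

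Psme1 held the interferon-type match TTTCGCTTTC, the motif read on the opposite strand, whose first base is base 10 after the start. The windows of Psme2 (both annotated starts) held no match to it. Of the 34 proteasome genes with a RefSeq window, 4 (11.8%) held this motif, Psmb3, Psmd4, Psmd9 and Psme1, against 3.99% of all 27025 genes with a window and 3.59% of the tested genes, and of those 4 only Psme1 was called. The antioxidant core was in 6 of 34 (17.6%), against 14.0% of all genes and 17% of the tested genes: Psmb5, Psmb6, Psmc6, Psmd9, Psmd12 and Psme4, of which Psmd12 was called. The CCAAT box was in 13 of 34 (38.2%), against 41.1% of all genes and 43.4% of the tested genes. No match says only that the letters are not in the window.

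The remaining members are an inhibitor gene and a pair of tissue-restricted core genes. Psmf1, which encodes the proteasome inhibitor and binding protein PI31, was at 9.06 and 9.61 FPKM with Cre, against 8.90 and 8.95 FPKM with YFP (log2 change 0.058, 95% interval -0.070 to 0.19). The Cre libraries were above the YFP libraries by less than their own spread. Psma8, the testis alpha subunit, was at 0.44 and 0.35 FPKM with Cre and at 0.42 and 0.48 FPKM with YFP, and Psmb11, the beta subunit of thymic cortical epithelium, at 0.18 and 0.19 FPKM with Cre and at 0.20 and 0.31 FPKM with YFP. Both were below the filter of 1 FPKM in at least 2 libraries and were not tested.

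Psmb8 and Psmb10 rose, with log2 changes above those of the constitutive genes they replace, Psmb5 and Psmb7, a difference that was not tested itself. In the immunoproteasome, Psmb9, Psmb10 and Psmb8 take the places of Psmb6, Psmb7 and Psmb5. Psmb8 was at 5.13 and 4.64 FPKM with Cre, against 2.65 and 2.94 FPKM with YFP (log2 change 0.63, SE 0.075, limma adjusted p = 1.28e-04), and Psmb10 at 10.1 and 10.1 FPKM with Cre, against 7.30 and 6.49 FPKM with YFP (log2 change 0.49, SE 0.065, limma adjusted p = 2.41e-04). Psmb9 was at 0.78 and 0.95 FPKM with Cre and at 0.54 and 1.03 FPKM with YFP, and was not tested.

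The constitutive genes still held most of the RNA of each pair. Psmb8 made up 5.71% and 4.73% of the FPKM of Psmb8 and Psmb5 with Cre, against 2.92% and 3.50% with YFP. Psmb10 made up 5.28% and 4.83% of the FPKM of Psmb10 and Psmb7 with Cre, against 4.11% and 3.66% with YFP. The groups did not overlap in these shares. Psmb9 made up 0.798% and 0.970% of its pair with Cre and 0.561% and 1.16% with YFP, with overlap. With 2 libraries against 2, an exact permutation test of a share cannot give a two-sided p below 0.333, so none was run.

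**Figure D3:**
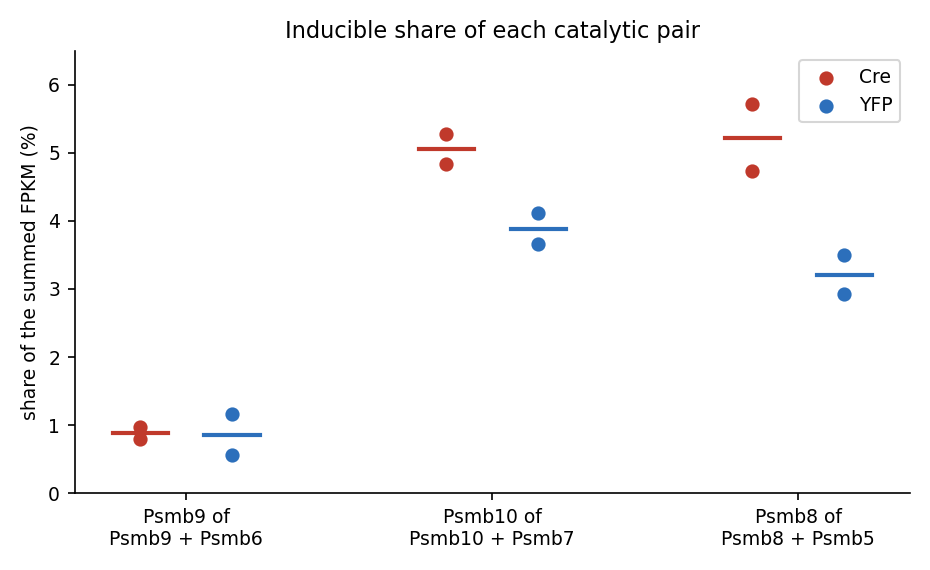
Share (%) of the inducible subunit gene in the summed FPKM of itself and its constitutive counterpart; each point is a library, the lines are group means, and Cre (red) stands left of YFP (blue). The Psmb10 and Psmb8 shares lie higher with Cre without overlap, and the Psmb9 shares overlap around 1%.

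Genes of interferon response, antigen presentation and macrophages were higher beside Psme1 and Psme2. These lists were chosen with earlier results of these data known. Of 14 interferon-induced genes 12 were tested, of which 11 rose and Irf1 did not pass, where 16.6% of all tested genes were called as higher. The median log2 change over the 12 was 1.05. Mx1 (at most 0.34 FPKM, overlapping groups) and Rsad2 (at most 0.81 FPKM, higher in both Cre libraries) were below the filter. Ifit3 did not pass with rescaling to equal totals (limma adjusted p = 0.0593) or with the replicate block (0.0742). Isg15 did not pass when either YFP library was left out, with log2 changes of 1.46 to 1.79 over the alternatives. Of 8 genes of class I peptide loading 6 rose and Erap1 and Canx did not pass, with a median of 0.18. Of these 8, 2 were called without Cre replicate 1, Tapbp and B2m, 3 without Cre replicate 2, 3 without YFP replicate 1, 3 with no filter and 3 without the trend and robust options. The transporter partner Tapbp rose by 0.43 on the log2 scale and B2m, the light chain of class I molecules, by 0.38. Of 8 macrophage markers, 6 were tested, of which 4 rose, and the summed FPKM of all 8 was 126 and 134 with Cre, against 97.5 and 95.3 with YFP. Among those 4, Csf1r did not pass when Cre replicate 2 was left out, with log2 changes of 0.29 to 0.51 over the alternatives. Cd68 had the largest log2 change of the 6, 0.69, at 11.9 and 13.5 FPKM with Cre, against 6.37 and 8.79 FPKM with YFP, and did not pass (limma adjusted p = 0.0552), but was called under 6 of 11 alternatives, and Cd14 did not pass (log2 change 0.080). The defining markers Ptprc and Emr1 were at no more than 0.96 FPKM in any library, while Lyz2 alone was at 99.1 and 105 FPKM with Cre, against 79.8 and 75.1 FPKM with YFP. Lymphocyte markers were listed at no more than 0.49 FPKM, and of the endothelial markers Cdh5 and Kdr reached 1.96 FPKM at most. The part of these cells and of interferon in the changes of Psme1 and Psme2 was not tested.

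The assembly chaperones of the core split by gene. Pomp, the maturation factor that sits in the partly built core until the proteolytic sites are freed, rose with Cre, at 142 and 140.3 FPKM against 119.8 and 122 FPKM with YFP (log2 change 0.22, SE 0.044, limma adjusted p = 0.00331). The call was made under all 11 alternative settings. The Psmg genes encode chaperones that pair up to assemble the alpha ring. Psmg4 fell, at 15.3 and 13.9 FPKM with Cre, against 16.6 and 18.0 FPKM with YFP (log2 change -0.23, SE 0.062, limma adjusted p = 0.0169), but did not pass without Cre replicate 2 (0.186), without YFP replicate 2 (0.0768), with no filter (0.0609) and without the trend and robust options (0.0512). Psmg2 fell by 0.17 on the log2 scale (limma adjusted p = 0.0446), a call lost under 7 of 11 settings, among them without YFP replicate 1 (0.251), without Cre replicate 1 (0.160) and without Cre replicate 2 (0.225). Psmg1 and Psmg3 did not pass, with log2 changes of -0.11 and -0.12, and Psmg1 was called as lower only without YFP replicate 1 (0.0161).

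**Figure D4:**
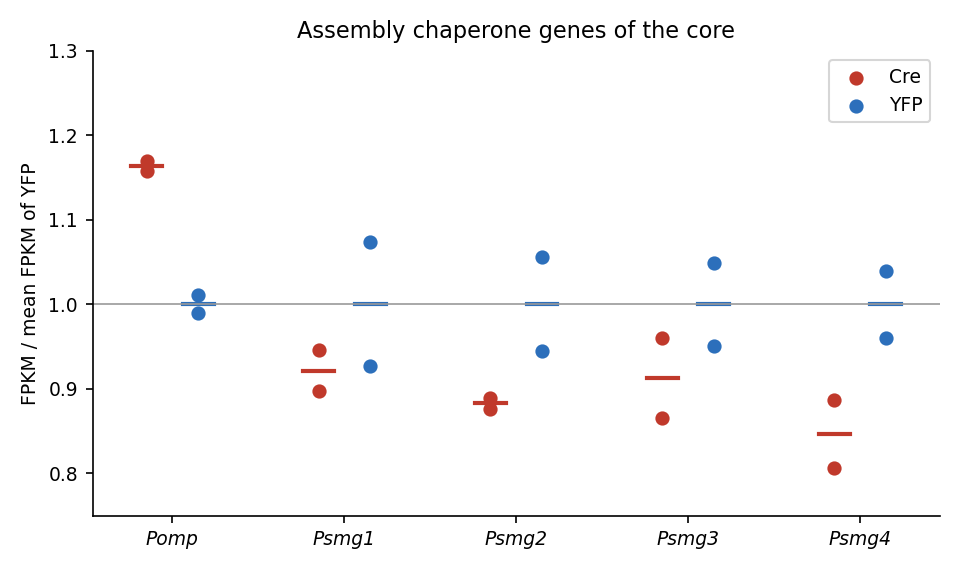
FPKM of each core assembly chaperone gene relative to its YFP mean (y axis, ratio), by library, with Cre (red) left of YFP (blue) and lines at the group means. Pomp lies above the YFP libraries in both Cre libraries, and both Cre libraries lie below both YFP libraries for Psmg2 and Psmg4.

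Genes of proteins that dock on the proteasome or feed it are read against 32.9% called over all tested genes. Of 13 tested genes of associated receptors, deubiquitinases and other factors, Adrm1, the ubiquitin receptor of the base, rose (log2 change 0.16, limma adjusted p = 0.0154), but did not pass without Cre replicate 1 (0.0881), without Cre replicate 2 (0.133) and without the trend and robust options (0.0525). AI314180, which encodes the proteasome adaptor Ecm29, fell by 0.21 (limma adjusted p = 0.00782), which did not pass without Cre replicate 2 (0.0922). The deubiquitinase gene Uchl5 and the ubiquitin shuttle gene Ubqln4 did not pass, with log2 changes of -0.14 and 0.13. Of 8 genes of the p97 segregase and its cofactors, Ufd1l rose by 0.26 (limma adjusted p = 0.00154) and the other 7 did not pass. Of 9 genes of the COP9 signalosome, a complex built like the lid, none passed and the median log2 change was -0.014. At an unadjusted p below 0.05, which at least 32.9% of all tested genes pass, Cops2 and Cops7b did, as lower.

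Of 8 genes of the NRF1 and NRF2 system, 2 rose (where 16.6% of all tested genes did), the small Maf genes Maff and Mafk, whose products pair with NRF1 and NRF2. Maff was at 23.9 and 25.6 FPKM with Cre, against 11.9 and 10.3 FPKM with YFP (log2 change 1.09, limma adjusted p = 3.97e-06), and Mafk rose by 0.53 (7.14e-05). Nfe2l1, which encodes NRF1, the activator that raises proteasome genes when proteasome activity is short, was at 70.3 and 66.0 FPKM with Cre, against 74.7 and 74.5 FPKM with YFP (log2 change -0.13, limma adjusted p = 0.0567). Nfe2l2, which encodes NRF2, was at 97.4 and 97.7 FPKM with Cre, against 89.1 and 90.1 FPKM with YFP (log2 change 0.12, limma adjusted p = 0.0517). Neither passed, although the groups did not overlap, and each passed under the filter of a mean of 5 FPKM (0.0468 for Nfe2l1, 0.0476 for Nfe2l2). Nfe2l1 also passed with rescaling to equal totals (0.0297), and Nfe2l2 with median-of-ratios scaling (0.0386).

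The calls of the core genes depended most on the setting, and that of Psme2 least. Under the 11 alternatives Psma6 was called 4 times, Psmb7 6 times, Psmd12 9 times, Psmd5 and Psme1 10 times and Psme2 11 times, always as higher.

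**Figure D5:**
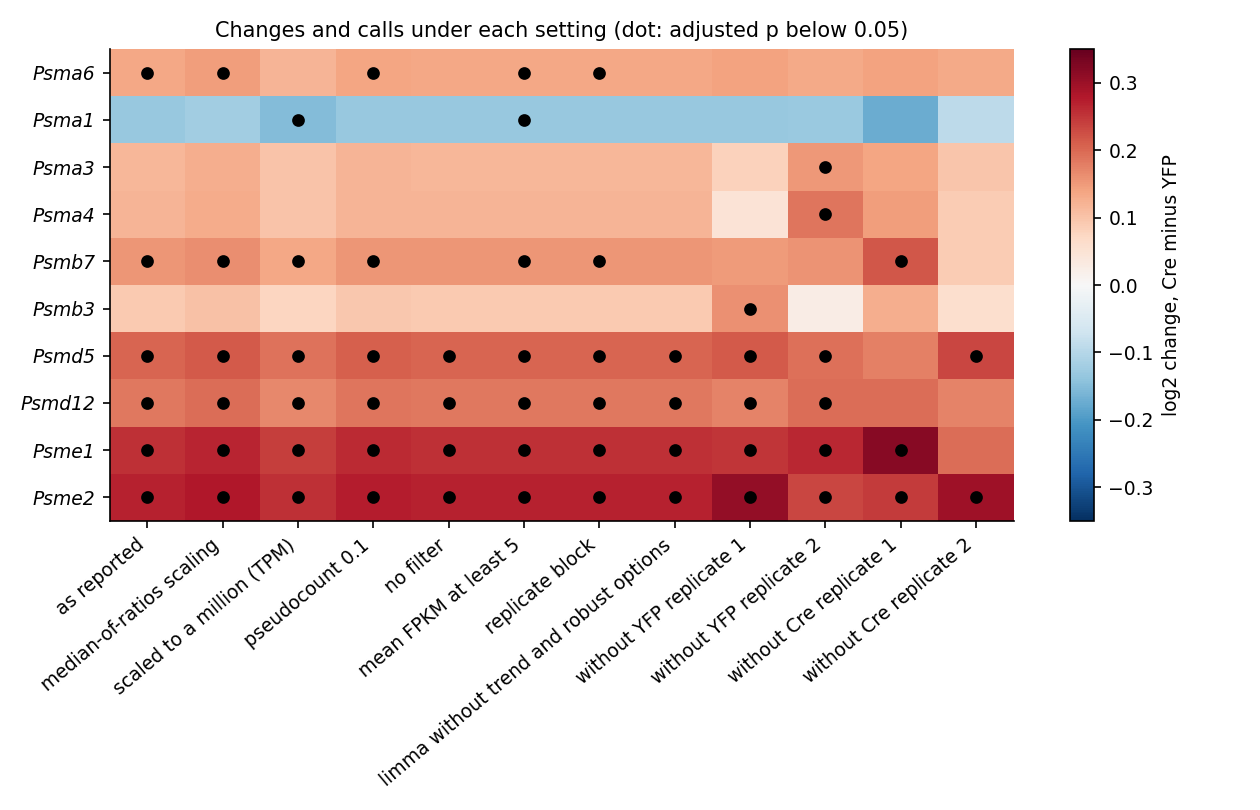
Log2 change (colour, Cre minus YFP) of the 6 called genes and of 4 others, out of the genes given in full, called under at least 1 setting, with a dot where limma's adjusted p was below 0.05; the left column is the analysis as reported and the others change one choice each. Psme2 is dotted throughout, and Psma6, Psma1 and Psmb7 change their call with the scaling or the filter.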

How the data were processed

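Libraries were made by polyA selection, starting with 1 ug of RNA, and read single-end on a BGISEQ-500, per the labels' protocols. The authors deposited gene-level FPKM values. Bowtie 02.2.5 and the mouse build mm8 are named in the submitters' processing notes, while the quantification program, the annotation and the treatment of strand and of multiply mapped reads are not given in the sources. From the deposited FPKM, log2(FPKM + 1) was tested with limma 3.58.1 in R 4.3.3 (Cre against YFP, trend and robust options, two-sided, Benjamini-Hochberg over all tested genes, threshold 0.05) on the 12046 genes that reached 1 FPKM in 2 or more libraries. The script was tested on simulated data. The 11 alternatives changed the scaling, the pseudocount, the filter, limma's options, a replicate block and the libraries included. In each class, the up to 4 genes of smallest p, the highest and the lowest were given in full, as were all Psme genes and Psmf1, and in each other gene list the up to 4 of smallest p. Psmb4, Psmd14 and other genes outside this rule were added for completeness, after their values were seen. The symbol rule used no measured value, but the genes and lists to describe were chosen with earlier results of these data known. Promoters and miRNAs came from RefSeq (GRCm38.p6) and 3′ UTRs from GENCODE M21, not from the build of the files.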

Additional observations from a re-analysis of the deposited data

How the results depend on the processing

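The numbers of called genes depended most on the Cre libraries. Leaving out 1 library at a time gave 1872 to 3560 called genes over the table, against 3961 with all libraries, and 2 to 6 proteasome genes, against 6. The same ranges were 0 to 2 for the alpha genes, 0 to 1 for the beta genes, 0 to 3 for the Psmd genes and 1 to 2 for the activators. In these fits the lone library of a group is assumed to vary like the others. The lowest counts over the table came without Cre replicate 1 (2384) and without Cre replicate 2 (1872). The median log2 change of the proteasome genes ranged from 0.031 (without YFP replicate 2) to 0.080. With no filter on low values, and again without limma's trend and robust options, 0 alpha and 0 beta genes were called, and under the filter of a mean of 5 FPKM the alpha genes had 2 calls, Psma6 as higher and Psma1 as lower. Base genes and Psmf1 had 0 calls under all 11 alternatives. Of 286 alternative values of single genes, 257 kept their direction and their side of the threshold, 16 lost a call, 5 gained one and 8 changed sign, none of them in a called gene. The sign changes came with median-of-ratios scaling in Psma5 (log2 change 0.0027) and Psmb2 (0.0068), and with a library left out. With each library left out in turn, log2 changes ranged from -0.050 to 0.034 in Psma5, from -0.040 to 0.032 in Psmb2, from -0.014 to 0.068 in Psme3 and from -0.050 to 0.017 in Psme4. The cause was not tested.

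With the replicate number as a block, 3533 genes and 6 proteasome genes were called. Same-numbered libraries did not deviate together over the 12046 genes taken as a whole (Pearson r = -0.031, with 2 pairs). Such a correlation cannot decide whether the libraries were made as pairs, and the labels give only a replicate number. The depth of the libraries is unknown. The precision rests on 2 libraries a group, with limma moderating the variance of each gene by that of the other tested genes.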
